A study of Mus musculus with 2 samples.

Results

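The metallothioneins are small, cysteine-rich proteins that bind zinc and copper, and the array used here holds probe sets for Mt1, Mt2, Mt3 and Mt4, together with Mtf1, which encodes the metal-responsive transcription factor 1. These 5 members, out of 18193 genes read on the array, were chosen by gene symbol from a family already known to stand out in these data, so their values are a description and carry no test. They are read by 10 probe sets (groups of array probes that are summarised into 1 value), namely 5 for Mtf1, 2 for Mt1 and 1 each for Mt2, Mt3 and Mt4. No probe set with several gene symbols named a member.

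Mouse bone marrow cells were kept for 3 days with M-CSF, the growth factor of the macrophage lineage, which gave adherent progenitors, and these were then cultured further. The macrophage group received M-CSF alone and the osteoclast group M-CSF plus RANKL, the cytokine that turns such progenitors into bone-resorbing osteoclasts, each for 6 days. All cells came from C57/Black6 mice aged 8 weeks, and 1 array was made per group, so differences are described by their size and not tested. The labels do not say how many animals or cultures an array stands for.

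When zinc rises in a cell, Mtf1 moves to the nucleus and binds metal response elements, short motifs in the promoters of Mt1 and Mt2, whose proteins then take up the metal. Mt1 and Mt2 are active in most tissues and also answer to cadmium, glucocorticoids and oxidative stress. Mt3 is best known from the brain, where its product was described as a growth inhibitory factor, and Mt4 from stratified epithelium.

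In the mouse reference the metallothionein genes follow each other on 1 strand of chromosome 8 in the order Mt4, Mt3, Mt2, Mt1, and Mtf1 lies on chromosome 4. The 250 bases before the annotated start of Mt1, Mt2 and Mt3, the genes with the signals described next, are given here from RefSeq (GRCm38.p6, plus strand, 5′ to 3′). Capitals mark the core of the metal response element, searched as TGCACNC and TGCGCNC on both strands, where N is any base; a match on the minus strand is seen as its reverse complement. The windows lie at chr8:94178839-94179088 for Mt1, chr8:94172368-94172617 for Mt2 and chr8:94152357-94152606 for Mt3.
Mt1: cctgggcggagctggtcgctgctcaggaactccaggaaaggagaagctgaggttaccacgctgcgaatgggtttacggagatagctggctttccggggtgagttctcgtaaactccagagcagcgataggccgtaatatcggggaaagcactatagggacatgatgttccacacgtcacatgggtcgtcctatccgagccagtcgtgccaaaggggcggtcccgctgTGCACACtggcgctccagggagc
Mt2: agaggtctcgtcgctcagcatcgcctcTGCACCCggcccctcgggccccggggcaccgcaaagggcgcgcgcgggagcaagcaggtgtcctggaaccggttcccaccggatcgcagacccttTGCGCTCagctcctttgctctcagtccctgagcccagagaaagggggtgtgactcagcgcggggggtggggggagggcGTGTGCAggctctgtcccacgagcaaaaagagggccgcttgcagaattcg
Mt3: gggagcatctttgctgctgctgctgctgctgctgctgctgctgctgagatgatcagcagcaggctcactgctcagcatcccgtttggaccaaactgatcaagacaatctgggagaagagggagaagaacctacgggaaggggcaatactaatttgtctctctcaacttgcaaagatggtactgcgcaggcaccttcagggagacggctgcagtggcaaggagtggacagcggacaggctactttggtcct

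The Mt2 window held 3 matches, 223 to 217, 128 to 122 and 50 to 44 bases before the start, the last of them on the minus strand. The Mt1 window held 1, 23 to 17 bases before the start. The start that RefSeq gives for Mt1 may lie upstream of the one in common use, so the Mt1 count may leave out elements nearer to that start. The Mt4 window also held 1, and those of Mt3 and Mtf1 held 0. Of 32851 promoter windows of this length in the table, 21.4% held at least 1 match and 1.26% held 3 or more. The core of the antioxidant response element (TGACNNNGC) and the AP-1 motif (TGANTCA) were found only in the Mt2 window among the 5 members, where they overlap in 1 place, from 79 bases before the start. They occurred in 10.2% and 6.75% of all windows. These are matches of letters in 1 window per gene, and bases after the annotated start, where a gene may have further starts, were not searched.

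Before the members, 3 facts of the arrays bear on every value. The osteoclast array gave lower signals at the median, by 1.35-fold (-0.43 on the log2 scale), over the 23708 probe sets measured in both arrays. This shift is subtracted from every log2 difference (osteoclast minus macrophage) called relative, with the deposited difference beside them. A signal counted as measured above a floor of 17.0 for macrophages and 14.4 for osteoclasts, the 40th percentile of each. A second, more cautious background level of 28.2 and 25.7 was the 95th percentile of 80 probe sets of olfactory and vomeronasal receptors, genes not known to be active in these cells, and it serves for folds written as "at least". The only error available is the SD between probe sets of a gene, 0.49 on the log2 scale, which contains no variation between cultures or animals. Of the markers of the labelled cell types, all 8 osteoclast genes were at least 2-fold higher in the osteoclast array (Ctsk, the bone collagen protease, 134 against 9202). All 7 macrophage genes were measured in both arrays, and 4 were at least 2-fold lower in osteoclasts (Adgre1, the F4/80 antigen, 5919 against 1107), while Csf1r, Cd14 and Cd68 lay between -0.46 and 0.032. The arrays also differed in Xist, the RNA of the inactive X chromosome (1872 in macrophages and 22.1 in osteoclasts), and in the Y-linked gene Eif2s3y (0.571 and 321), so RANKL and the sex of the animals cannot be told apart.

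Mt3 differed most among the members. Its only probe set gave an intensity of 2.07 in macrophages, below the floor, and of 3351 in osteoclasts. Mt3 was therefore measured in osteoclasts only. With the macrophage signal raised to the receptor level, the osteoclast array exceeded it at least 119-fold as deposited, or at least 160-fold once the shift is taken off. With 1 probe set and 1 array per group, neither a second probe set nor a second culture checks this value.

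**Figure D1:**
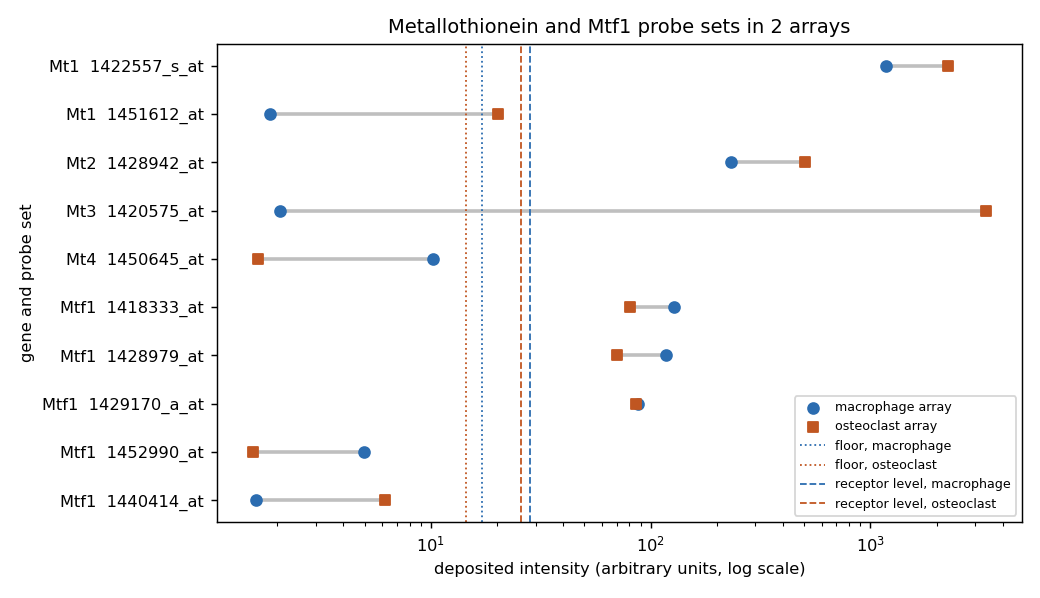
Deposited intensity (log axis, arbitrary units) of each of the 10 member probe sets, with a circle for the macrophage array and a square for the osteoclast array; dotted lines are the floors (17.0 and 14.4) and dashed lines the receptor levels (28.2 and 25.7). Mt3 spans from 2.07 to 3351, Mt2 and the brighter Mt1 probe set are higher in osteoclasts, and 3 probe sets lie under the floor in both arrays.

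Mt1 and Mt2, the widely expressed metallothioneins, were both higher in osteoclasts, by far less than Mt3. The brighter Mt1 probe set gave 1174 in macrophages and 2260 in osteoclasts, a log2 difference of 1.38 relative to the shift (2.60-fold) and of 0.94 as deposited (1.92-fold). Mt1 thus passed 2-fold relative to the shift and did not as deposited. Mt2 gave 231 in macrophages and 505 in osteoclasts, a log2 difference of 1.56 relative to the shift (2.94-fold) and of 1.13 as deposited (2.18-fold). The differences relative to the shift were 2.79 and 3.15 times the SD between probe sets of a gene, and the deposited ones were smaller multiples. Of 11469 genes measured in both arrays, 334 (2.91%) had a higher difference than Mt1 and 237 (2.07%) a higher one than Mt2.

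The probe sets of Mt1 did not give the same size. The dimmer one read 1.85 in macrophages and 20.2 in osteoclasts, above the floor but under the receptor level, and so gives a direction only within background. The brighter one carries the suffix that Affymetrix gives to probe sets shared by several transcripts. Mt1 and Mt2 are close in sequence, so how far each probe set reads the other gene was not tested.

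Mt4 was not measured. Its probe set gave 10.2 in macrophages and 1.63 in osteoclasts, both below the floor, and no difference is given for it.

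Mtf1, the regulator, stayed near the shift. Its brightest probe set gave 127 in macrophages and 80.7 in osteoclasts (-0.23 relative to the shift, -0.66 as deposited). The relative difference was smaller than the SD between probe sets, and the deposited one was larger. The other Mtf1 probe sets measured in both arrays gave 118 and 70.0 (-0.31), and 87.3 and 85.6 (0.41). The 3 measured probe sets thus lay on both sides of the shift. The remaining 2 Mtf1 probe sets were below the floor in both arrays, at 4.97 and 1.56, and at 1.60 and 6.21. Of the genes measured in both arrays, 64.7% had a higher difference than the brightest Mtf1 probe set.

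In all, 3 of the 4 members measured in at least 1 array were 2-fold or more higher in osteoclasts relative to the shift, and 2 as deposited, while 0 were 2-fold lower on either scale. Over all 13647 genes measured in at least 1 array, 7.11% were 2-fold higher relative to the shift and 3% as deposited, and 6.99% and 17.5% were 2-fold lower. As the family was picked with these values known, nothing is read from that count.

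**Figure D2:**
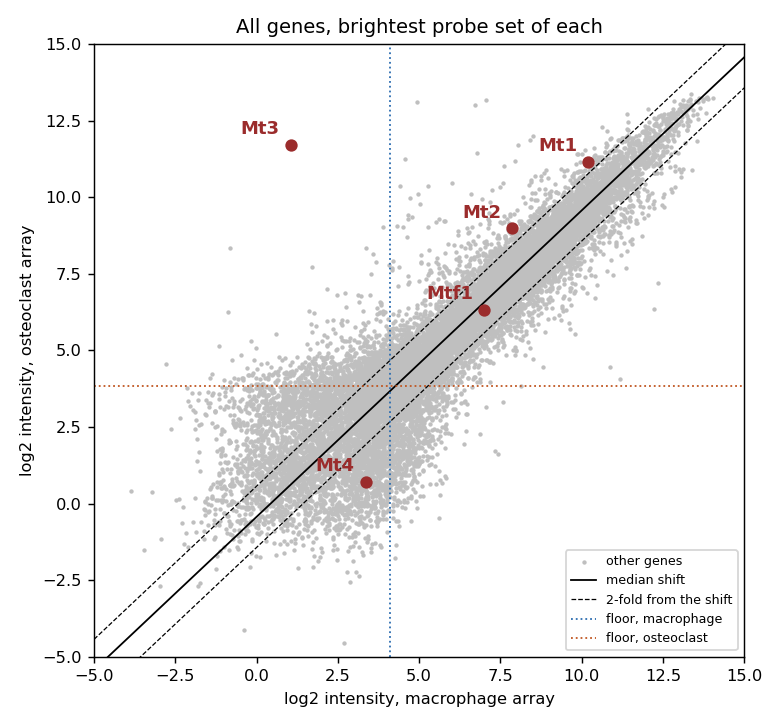
Log2 intensity of each of 18193 genes, from its brightest probe set, in the macrophage array (horizontal) and the osteoclast array (vertical), with the members named; the solid line is the median shift and the dashed lines are 2-fold from it. Mt1 and Mt2 lie just above the upper dashed line, Mtf1 near the solid line, Mt4 below both floors, and Mt3 left of the macrophage floor at a log2 intensity of 11.71 in osteoclasts.

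The genes nearest to each member on the floored log2 signals of both arrays were listed by Euclidean distance; with 2 arrays, and since signals of different probe sets share no scale, this is a weak measure of likeness. Nearest to Mt3 were Car2, the carbonic anhydrase of osteoclast acid secretion (23.7 against 2415, distance 0.67), Akr1c18, a steroid dehydrogenase (21.5 against 1318, 1.39), and Mmp9, a gelatinase of osteoclasts (30.4 against 8767, 1.62). Nearest to Mt1 were Sod2, the mitochondrial superoxide dismutase (1224 against 2172, 0.083), S100a8, a calcium- and zinc-binding protein of granulocytes (0.14), and Pdhb, a subunit of pyruvate dehydrogenase (0.14). Nearest to Mt2 were Myo10 (0.031), an actin motor, Ss18l2 (0.051) and Ccdc88a (0.11). Nearest to Mtf1 were Btd (0.020), the biotinidase gene, Taf11 (0.020), a subunit of the general transcription factor TFIID, and Kctd21 (0.028).

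Protein-coding neighbours of the cluster were read in the gene order of the same assembly, 6 on each side. Of these 12, 10 were measured, and 1 had a 2-fold difference relative to the shift. This was Herpud1, a gene of the endoplasmic reticulum stress response, 3 places beyond Mt1 (244 against 464, 1.36; 0.93 as deposited). Its name was singled out after its value was seen. The genes directly beside the cluster were Bbs2, at 5.18 and 15.2, close to the floor, and Nup93, a nuclear pore gene, at 637 and 513 (0.12). The other 7 measured neighbours lay between -0.46 and 0.47.

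**Figure D3:**
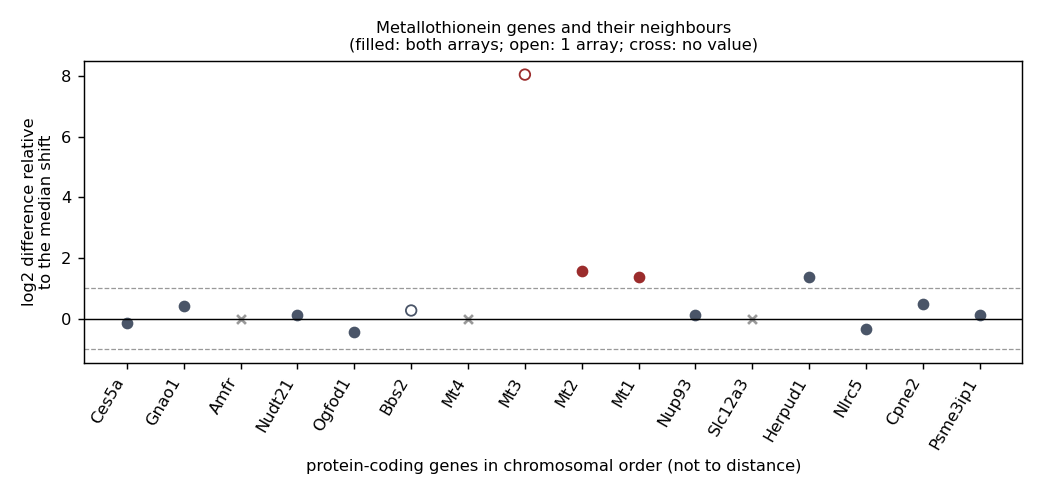
Log2 difference of osteoclast over macrophage relative to the median shift (vertical) for the metallothionein genes (red) and 6 protein-coding neighbours on each side (grey), in chromosomal order without distances; open circles are genes below the floor in 1 array and crosses genes with no value. Mt3 (drawn at 8.05, its value with the macrophage signal at the floor), Mt2 and Mt1 stand above the dashed 2-fold line, as does Herpud1.

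The other genes of metal handling were read from lists, 1 value a gene. Zinc exporters, which move zinc out of the cytosol, had 8 of 10 genes measured, of which 0 were 2-fold higher and 1 lower, with a median of -0.064 (-0.50 as deposited), against 0.00 and -0.43 over all measured genes. The lower gene was Slc30a3 (125 against 45.8, -1.02), a vesicle zinc transporter. Slc30a1, the plasma membrane exporter and a classical Mtf1 target, gave 440 and 320 (-0.024), and was singled out after its value was seen. Zinc importers had 13 of 14 genes measured, with 2 at least 2-fold higher and 1 lower and a median of -0.13 (-0.57 as deposited, with 0 higher and 3 lower). Slc39a13, a zinc transporter of the Golgi and vesicles, was higher in osteoclasts (148 against 289, 1.40). Slc39a2 passed 2-fold only against the floor (0.957 against 25.7), and lay just under the receptor level in osteoclasts. Slc39a8, an importer of zinc and manganese, was lower (166 against 35.2, -1.80), and its other probe set gave -0.90. Slc39a14 is not counted as lower, at -0.84 for its brightest probe set, but another of its probe sets gave -1.30.

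Genes of copper handling were all measured, 14 of 14, with 1 at least 2-fold higher, 1 lower and a median of -0.036 (-0.47 as deposited). Atp7a, the copper-exporting ATPase, was lower in osteoclasts (1018 against 258, -1.54), and its second probe set gave -1.47. Sco2, which delivers copper to cytochrome c oxidase, was higher (131 against 225, 1.21; 0.78 as deposited). Atox1 is not counted as higher, at 0.70 for its brightest probe set, but another of its probe sets gave 1.28.

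Known Mtf1 targets other than metallothioneins had 7 of 8 genes measured and a median of -0.024 (-0.46 as deposited), with 1 at least 2-fold higher and 0 lower. The higher gene was Pgf, placental growth factor, which was measured in osteoclasts only (3.55 against 55.9), with a difference of at least 2.68-fold once the shift is taken off. The other 6 lay between -0.85 and 0.67. The lists overlap: the exporters Slc30a1 and Slc30a2 and the importer Slc39a10 also belong to the zinc lists. Gclc is also on the oxidative stress list and Ndrg1 on the hypoxia list, both given next.

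Lists for stimuli that act on metallothionein genes had medians on either side of the shift. For the oxidative stress response 11 of 13 genes had a probe set and were measured, with 0 at least 2-fold higher, 3 lower and a median of -0.55 (-0.98 as deposited). Hmox1, the heme-degrading oxygenase, gave 5984 in macrophages and 812 in osteoclasts (-2.45). Gclm, the modifier subunit of glutathione synthesis, gave 5820 and 1025 (-2.07), and Nqo1, a quinone reductase, gave 298 and 108 (-1.03). Glucocorticoid-responsive genes, 8 of 8 measured, had a median of -0.45 (-0.88 as deposited) with 0 higher and 1 lower, Zfp36, a destabiliser of cytokine messages (926 against 341, -1.01). Hypoxia-responsive genes, 10 of 10 measured, had a median of 0.11 (-0.32 as deposited) with 0 higher and 1 lower, Adm, adrenomedullin (119 against 38.7, -1.19, other probe set 0.11). These counts rest on the brightest probe set of each gene. Another probe set passed 2-fold for Pdk1 (1.47), Nr3c1 (-1.82) and Srxn1 (-1.25), which are not counted. Over all measured genes 14.1% differed by at least 2-fold in either direction relative to the shift, and 20.5% as deposited.

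**Figure D4:**
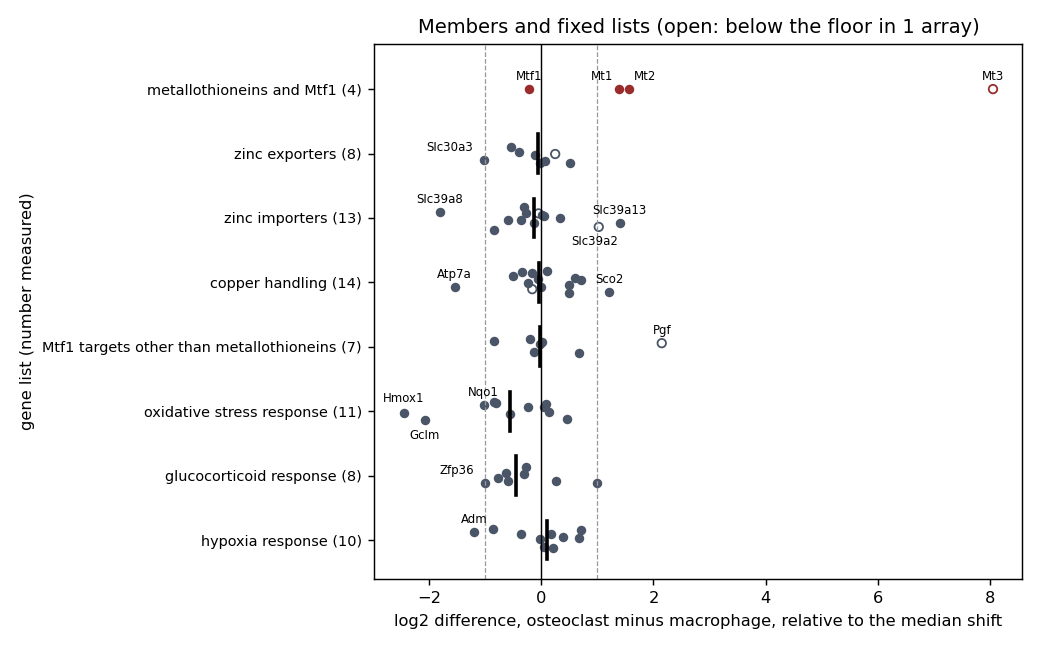
Log2 difference of osteoclast over macrophage relative to the median shift for the 4 measured members (red) and the measured genes of the 7 lists (grey), with a black bar at each list's median; open circles were below the floor in 1 array, and genes past the dashed 2-fold lines are named. List medians run from -0.55 to 0.11. Mt1 and Mt2, which are single genes, lie at 1.38 and 1.56. Single list genes run from -2.45 (Hmox1) to 2.15 (Pgf, drawn with its macrophage signal at the floor), with Slc39a13 at 1.40. Mt3 is drawn at 8.05, a value that is set by the floor in macrophages.

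Lists of markers for further cell types, which marrow may contribute, were set beside the members. Fewer cells of a type and less RNA per cell cannot be told apart in such samples. Granulocyte markers, like Mt1, Mt2 and the osteoclast markers, were higher in osteoclasts. With 1 array per group, this does not show that they vary together. Of 10 genes, 9 had a probe set and were measured, 7 of them in both arrays. Of the 9, 8 passed 2-fold upwards (5 as deposited), against 7.11% of all measured genes (3% as deposited). Their median was 1.5, and the summed signal was 3241 in macrophages and 6092 in osteoclasts. All 9 lay above the shift. The largest differences were in granule genes. Prtn3 gave 22.2 in macrophages, under the receptor level, and 63.5 in osteoclasts. Mpo gave 36.2 and 89.3, and Elane gave 4.24, below the floor, and 45.6. The part of these cells in the Mt1 and Mt2 values was not tested. Stromal and osteoblast markers summed to 12669 and 7282, with a median of -0.16 over 7 measured genes, 3 above the shift and 4 below. Relative to the shift 0 were 2-fold lower and 2 higher, and as deposited 2 lower and 1 higher. The collagen gene Col3a1 was higher (767 against 1255, 1.14, other probe set 0.96). So was the proteoglycan gene Dcn (15.3, below the floor, against 37.0, at least 1.77-fold relative to the shift). Lower as deposited were Sparc (3705 against 1535, -1.27) and Cxcl12 (307 against 130, -1.24). Relative to the shift, another Cxcl12 probe set gave -1.53, against -0.81 for its brightest. The probe sets of Col1a1 gave -0.16 and 0.77 on that scale. For the tissues that Mt3 and Mt4 are known from, 5 of 6 neural and glial genes were measured, 2 of them in both arrays. Their median was 0.63 (0.20 as deposited), with 0 at least 2-fold higher and 1 lower (Tubb3, 55.1 against 1.87). That median is the value of a gene below the floor in macrophages and under the receptor level in osteoclasts. The summed signals of the neural and glial genes were 514 in macrophages and 362 in osteoclasts, most of it from Mbp (418 and 292, -0.088). Of 5 keratinocyte genes 3 were measured, with 0 at least 2-fold apart and summed signals of 155 and 144. The remaining lists summed to 119 and 49.5 for B lymphocytes, 622 and 222 for T and NK lymphocytes, 97.3 and 45.6 for erythroid cells, and 299 and 301 for megakaryocytes. Of the genes with a probe set, 2 of 4 were measured for B lymphocytes, 2 of 5 for T and NK lymphocytes and 2 of 3 for erythroid cells. Most of the T and NK sums came from Il7r (565 and 176). The megakaryocyte genes went both ways, with Vwf at 13.9, below the floor, against 95.5 and Treml1 at 71.2 against 15.6 (-1.75).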

How the data were processed

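The authors deposited 1 linear intensity per probe set for each of 2 Affymetrix arrays, per the labels of biotinylated cRNA made from 1 µg of total RNA. The software, background correction, scaling and detection calls were not given in the sources used here. The table holds 45101 probe sets. After 64 controls were left out, 34945 had 1 gene symbol in the platform annotation, which can be old, 932 had several and 9160 none. Only the first kind was used, and the probe set brightest on average (mean of the log2 signals) stood for the gene. Values under the floor were raised to it. Differences are log2 ratios, computed from the deposited intensities, relative to the median shift of probe sets measured in both arrays.

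Groups follow the sample labels, with 1 array each. Genes were counted by size at 2-fold, and the number of arrays limits every value. The members and lists were chosen with earlier results of these data known. Named genes are the members, up to 3 genes a direction with the largest differences past 2-fold in each list, and the 3 genes nearest to each measured member. Other genes were named outside this rule, and not all of them are marked. Among them are cell type markers under 2-fold, genes that carry most of a summed signal, and genes with another probe set past 2-fold. Alternatives were no centring, quantile normalization, another floor or none, and means over probe sets, before or after the floor. Of 72 genes on the 7 lists, 2 had no probe set with 1 symbol, as had 6 of 66 marker genes; they are not analysed here. Promoters were matched by symbol to RefSeq for all 5 members, and no protein sequences were used here. The centring and the 2-fold calls were tested on simulated data, and the motif search on short made sequences (Python 3.11.15, numpy 2.4.6, pandas 2.3.3). Those sequences held no TGCGCNC match, and the core of the antioxidant response element was not tried on them. The simulated arrays had 1 probe set a gene and changes only in genes well above the macrophage floor. The choice of probe set and a change from below the floor, as in Mt3, were therefore not tested.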

Additional observations from a re-analysis of the deposited data

How the results depend on the processing

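Of 60 alternatives over 13 results, 55 stayed within the SD between probe sets or, for counts, within 1.5 times. Part of this tally was fixed in advance. Leaving out the centring moves a member's difference or a list median by at most the shift (-0.43), less than the SD (0.49). Means over probe sets cannot change Mt2 or Mt3, with 1 probe set each, and having no floor cannot change Mt1, Mt2 or Mtf1. Mt1 differed by 2.63 with the mean over both of its probe sets, in which the dimmer one enters at its deposited macrophage value, under the floor, and by 1.03 with each probe set raised to the floor before the mean, an alternative chosen after seeing the data. Mt3 differed by 8.05 with the macrophage signal at the floor, 7.34 at the receptor level and 11.09 with no floor, in each case higher in osteoclasts. As deposited, 409 genes were 2-fold higher and 2390 lower, against 970 and 954 relative to the shift; Mt1 fell under 2-fold, at 0.94. Mtf1 differed by 0.20 and 0.049 under these means over its 5 probe sets, 2 of them under the floor in both arrays, against -0.23 for the brightest; all lie within the SD of the shift. No paired analysis was possible because each group has 1 array. Mt4 gave no value to compare. Without replicates, a difference between cultures cannot be told from one between treatments.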
